A study of Homo sapiens with 9 samples.

Results

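The regulators of the SREBP pathway and the carriers and exporters of cholesterol were examined as a group of 8 genes, SREBF1, SREBF2, SCAP, INSIG1, INSIG2, STARD4, ABCA1 and ABCG1. They were chosen by name, with earlier results of these data known, and matched to 8 of the 60605 rows of the deposited gene table, with 1 row per symbol. The shares of all tested genes given beside their counts are therefore a scale and not a test of the group. TE13, an established esophageal squamous cell carcinoma (ESCC) line, had been transfected with one of the PARylator siRNAs, siRNA.1 or siRNA.2, or with control siRNA, and 3 RNA-seq libraries were made of each, 9 in all. PARylator is the lncRNA LINC00885, and the experiment asked how its knockdown changes the transcriptome. All 3 groups were transfected, there was a single control siRNA and no untransfected group, and the cells carry no other engineered change named in the labels. The time from transfection to harvest is not given for the RNA-seq in the sources used here.

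SREBP-1 and SREBP-2, encoded by SREBF1 and SREBF2, are transcription factors that are made as membrane proteins of the endoplasmic reticulum and are held there by the escort SCAP together with INSIG proteins when sterols are plentiful. When sterols run low, SCAP carries the precursors to the Golgi, where they are cut, and the released fragment turns on genes of sterol and fatty acid synthesis and of lipoprotein uptake. INSIG1, STARD4 and the SREBF genes are themselves SREBP targets, so their mRNA is widely used as a readout of the pathway, whereas ABCA1 and ABCG1 are turned on by the liver X receptors (LXR) when sterols accumulate and export cholesterol to lipoprotein acceptors.

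Total counts on genes lay between 15337917 and 22559998 per library, and the siRNA.2 libraries were the deepest, with at least 19213164. The targeted gene was barely covered, with 6, 7 and 12 counts of LINC00885 in the control libraries, 4, 5 and 2 under siRNA.1 and 2, 0 and 4 under siRNA.2, and in neither comparison with control did it pass the threshold (adjusted p = 0.376 under siRNA.1 and 0.0659 under siRNA.2 from edgeR). From qPCR, the paper reports siRNA knockdown of PARylator in TE13 cells, a measurement apart from these counts. Of the epithelial markers KRT5, KRT14, KRT18, EPCAM, CDH1 and TP63, none was at 0, and their summed level was between 810 and 955 FPKM (counts scaled to exonic length and library total) in every library. In each comparison with control, 2 of the 6 were called higher and 3 lower, where 30.2% and 30.9% of all tested genes were called. KRT18 made up most of that sum, at group means between 451 and 595 FPKM, while KRT5, a basal keratin, was at 142 ± 8.29 FPKM (SD, n = 3) in control libraries, 40.0 ± 2.81 under siRNA.1 and 55.8 ± 2.85 under siRNA.2, log2 fold changes of -1.86 and -1.36, and its part in the results was not tested. Mitochondrial genes took between 7.46% and 7.66% of counts in control libraries, between 4.99% and 5.06% under siRNA.1 and between 5.54% and 5.56% under siRNA.2, and the part of this in the results was not tested. The quasi-likelihood test of edgeR was run on the counts of all 3 groups together, over the 21397 genes that averaged 0.1 FPKM or more, a filter that all 8 genes passed, and p-values were adjusted by Benjamini-Hochberg and held to 0.05. SE is the standard error of a log2 fold change. The sources call the 3 libraries of a group biological replicates or experimental repeats without naming separate cultures, and the p-values measure only the spread between these libraries, which may in part be technical.

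Of the 8 genes, 6 were lower with siRNA.1 than with control siRNA and none was higher, where 30.2% of all tested genes were called, 15.2% lower and 15.0% higher. With siRNA.2, again 6 of the 8 were lower and none higher, where 30.9% of all tested genes were called, 15.1% lower and 15.8% higher. The genes called lower in each comparison were SREBF1, SREBF2, INSIG1, STARD4, ABCA1 and ABCG1, and those not called were SCAP and INSIG2. Over the 8 genes the log2 fold change had a median of -0.46 under siRNA.1 and -0.62 under siRNA.2, beside medians of -0.00053 and 0.0040 over all tested genes. The comparisons share the control libraries, so their values are given side by side and not as independent evidence. In FPKM, the siRNA libraries did not overlap the control libraries for the same 6 genes in each comparison, where 17.0% and 18.5% of all tested genes lay wholly below the control libraries.

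**Figure D1:**
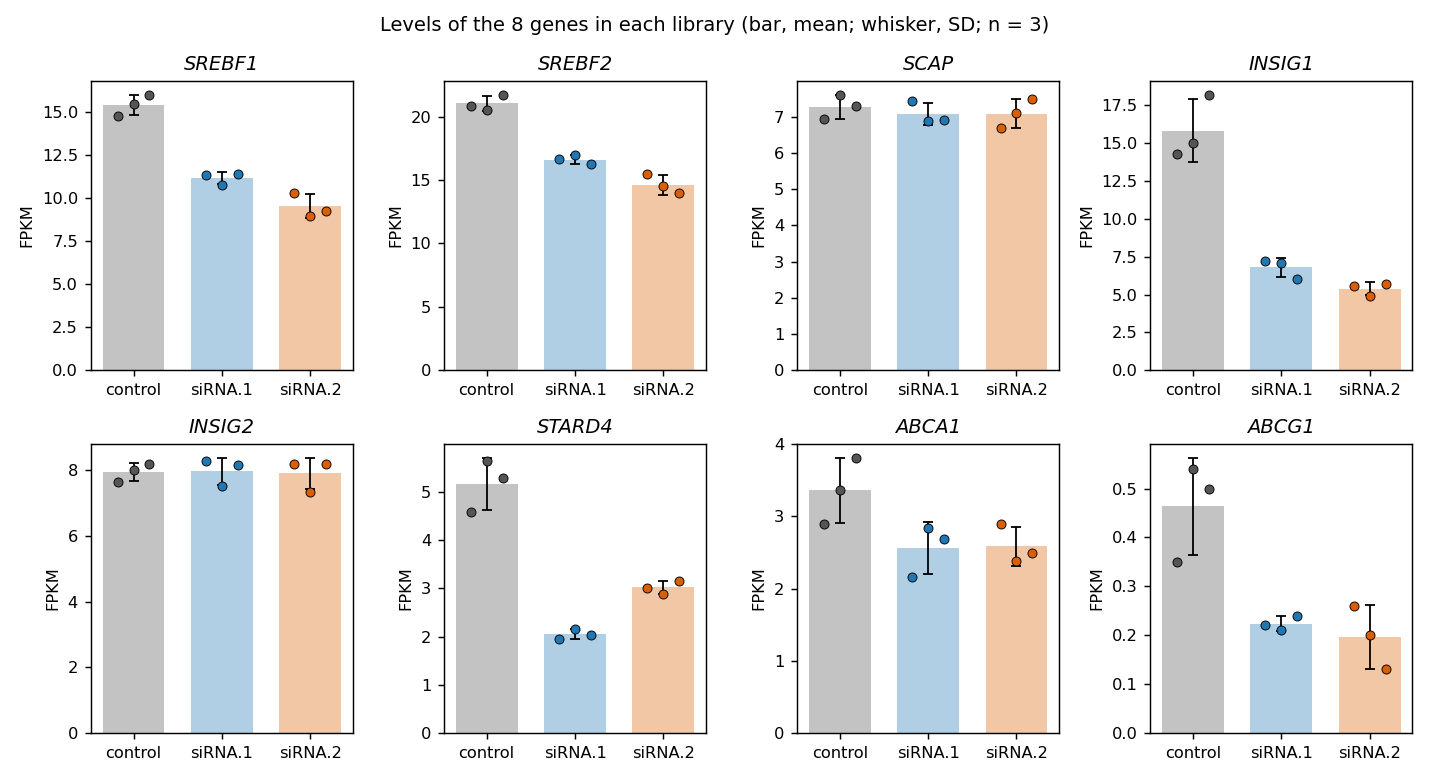
FPKM of each gene in each of the 9 libraries (points), with the group mean (bar) and SD (whisker), for control siRNA, PARylator siRNA.1 and PARylator siRNA.2 (n = 3 each). For SREBF1, SREBF2, INSIG1, STARD4, ABCA1 and ABCG1 all siRNA libraries sit below all control libraries, by a narrow margin for ABCA1, and SCAP and INSIG2 overlap.

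In cells with control siRNA, SREBF2 was the most abundant of the 8 genes per exonic length, at 21.0 ± 0.617 FPKM (SD, n = 3). INSIG1, at 15.8 ± 2.08 FPKM, and SREBF1, at 15.4 ± 0.593 FPKM, followed, and these neighbours overlapped between libraries. INSIG2 and SCAP came next at 7.96 ± 0.271 and 7.28 ± 0.330 FPKM, with the lowest INSIG2 library (7.66) just above the highest SCAP library (7.60). STARD4 at 5.17 ± 0.543 FPKM and ABCA1 at 3.36 ± 0.455 FPKM did not overlap, and ABCG1, at 0.463 ± 0.10 FPKM, was the least abundant. The order of the genes differed with the PARylator siRNAs. INSIG1 lay below INSIG2 with each siRNA, and below SCAP with siRNA.2, while with siRNA.1 it overlapped SCAP. INSIG2 and SCAP overlapped with siRNA.2 but not with siRNA.1. STARD4 and ABCA1 were no longer apart, sharing the value 2.16 FPKM between a STARD4 and an ABCA1 library of siRNA.1 and 2.89 FPKM between those of siRNA.2.

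SREBF2 encodes SREBP-2, the SREBP that mainly drives sterol synthesis and uptake of low-density lipoprotein (LDL). The gene (ENSG00000198911) lies on chromosome 22 (plus strand, 41833079 to 41907307) in the deposited GRCh38 coordinates. It was at 20.9, 20.5 and 21.7 FPKM in the control libraries, 16.6, 17.0 and 16.2 under siRNA.1 and 15.5, 14.5 and 13.9 under siRNA.2. The 3 groups did not overlap, with control the highest and siRNA.2 the lowest. The log2 fold change was -0.37 under siRNA.1 (SE 0.05, edgeR adjusted p = 2.12e-11) and -0.54 under siRNA.2 (SE 0.05, edgeR adjusted p = 1.81e-23), which leaves 77.4% and 69.0% of the control level.

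SREBF1 encodes SREBP-1, whose 1c form mainly drives fatty acid synthesis and is also an LXR target. The table counts the gene as a whole (ENSG00000072310, minus strand of chromosome 17, 17810399 to 17837002), so the 1a and 1c forms were not separated. It was at 14.8, 15.5 and 16.0 FPKM in control libraries, 11.4, 10.8 and 11.4 under siRNA.1 and 10.3, 8.96 and 9.27 under siRNA.2, and here too the groups formed 3 separate steps. Its log2 fold change was -0.49 under siRNA.1 (SE 0.06, edgeR adjusted p = 7.71e-17) and -0.71 under siRNA.2 (SE 0.06, edgeR adjusted p = 9.98e-35). The tail of SREBF1 overlaps RAI1, a gene on the opposite strand with between 1652 and 2437 counts per library, and the sources do not state whether counting used strand, so reads of the shared stretch are uncertain. The SREBF2 to SREBF1 ratio within libraries had geometric means of 1.37 in control libraries, 1.49 under siRNA.1 and 1.54 under siRNA.2, a log2 difference from control of 0.12 and 0.17 (two-sided exact permutation p = 0.10 in each), and SREBF2 was the higher in all 9 libraries.

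The promoters of RefSeq (GRCh38.p14), from 250 bases before to 50 bases after the annotated start, were available for 7 of the 8 genes and were searched on both strands for motifs of sterol control. The SREBF2 promoter is shown because it was the only window among the 7 with the sterol regulatory element, the SREBP site, whose letters are the first run of capitals in the line and which 0.0458% of 34943 promoters hold. Its capitals mark that element, at -134 to -125 from the start, and a CCAAT box, read as ATTGG on this strand, at -106 to -102, which is the site of the SREBP partner NF-Y and is held by 34.6% of promoters.
SREBF2 promoter, chr22:41832855-41833154, plus strand: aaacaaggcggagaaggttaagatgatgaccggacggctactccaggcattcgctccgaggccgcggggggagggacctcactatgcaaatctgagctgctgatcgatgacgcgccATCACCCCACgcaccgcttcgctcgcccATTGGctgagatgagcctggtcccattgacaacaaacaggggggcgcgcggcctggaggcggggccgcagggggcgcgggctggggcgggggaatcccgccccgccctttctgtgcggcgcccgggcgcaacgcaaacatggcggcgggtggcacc
A looser spelling, TCACNCCAC, which overlaps the element above, was held by 1.12% of promoters and among the 7 again by SREBF2 alone. Over all the RefSeq promoters searched, 16 genes had a promoter with the exact element, of which 6 were among the tested genes, SREBF2 included. With siRNA.1, SREBF2 and 1 other gene were lower and 1 was higher, and with siRNA.2, SREBF2 alone was lower and 1 was higher. Of all tested genes, 15.2% and 15.1% were called lower and 15.0% and 15.8% higher. The GC box GGGCGG, the site of Sp1, was in 7 of the 7 promoters and in 44.9% of all promoters.

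INSIG1 and INSIG2 encode the proteins that hold SCAP in the endoplasmic reticulum, and they behaved differently. INSIG1 (ENSG00000186480, plus strand of chromosome 7, 155297776 to 155310235) was at 14.3, 14.99 and 18.2 FPKM in control libraries, 7.23, 7.11 and 6.06 under siRNA.1 and 5.56, 4.88 and 5.70 under siRNA.2. The highest siRNA library was far below the lowest control library, and every siRNA.2 library was below every siRNA.1 library. The log2 fold change was -1.25 under siRNA.1 (SE 0.08, edgeR adjusted p = 8.98e-48) and -1.57 under siRNA.2 (SE 0.08, edgeR adjusted p = 1.72e-74), a level of 42.0% and 33.7% of control. Only 5.60% of all tested genes had a lower log2 fold change with siRNA.1, and 3.97% with siRNA.2.

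INSIG2 (ENSG00000125629, plus strand of chromosome 2, 118088452 to 118110997) is a close relative of INSIG1 that is not known as an SREBP target in most cells. It was at 7.66, 8.02 and 8.19 FPKM in control libraries, 8.28, 7.51 and 8.15 under siRNA.1 and 8.18, 7.35 and 8.19 under siRNA.2, and all 3 groups overlapped. Its log2 fold change was -0.02 with each siRNA, with a 95% interval from -0.19 to 0.15 in both comparisons (adjusted p = 0.897 and 0.912 from edgeR), so a change of the size seen in INSIG1 lies outside the interval. Within a library, the ratio of INSIG1 to INSIG2 FPKM was 1.87, 1.87 and 2.22 in control libraries, 0.873, 0.947 and 0.744 under siRNA.1 and 0.680, 0.664 and 0.696 under siRNA.2. INSIG1 was thus the more abundant INSIG transcript in every control library and the less abundant in every siRNA library. The log2 ratio differed from control by -1.22 under siRNA.1 and by -1.54 under siRNA.2 (two-sided exact permutation p = 0.10 in each, the smallest p that 3 libraries against 3 allow).

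**Figure D2:**
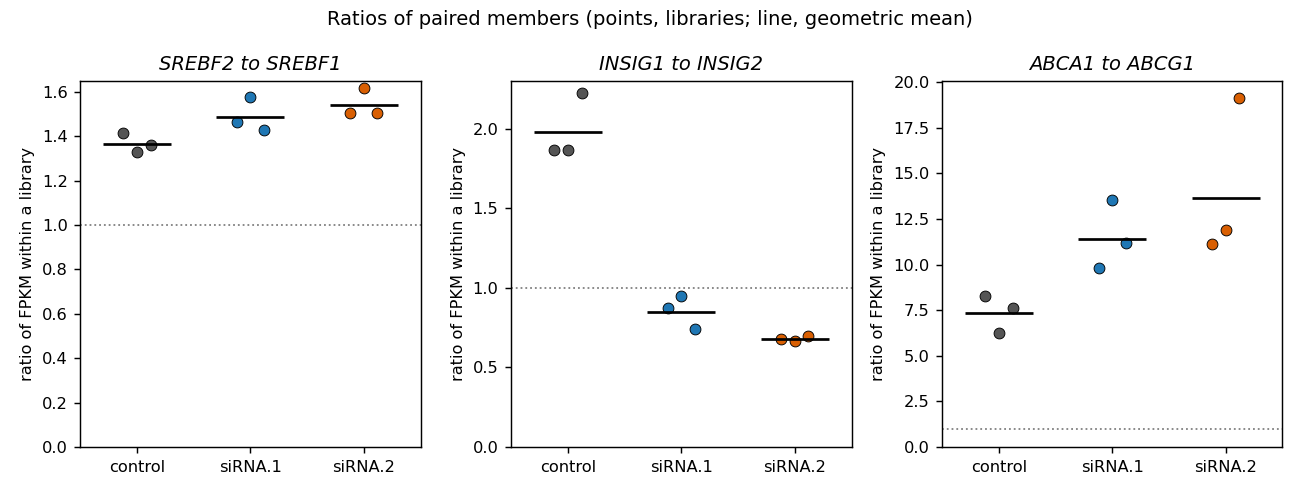
Ratio of the FPKM of 2 genes within the same library (points) and the geometric mean of each group (line), for SREBF2 to SREBF1, INSIG1 to INSIG2 and ABCA1 to ABCG1, and the dotted line marks equal levels. INSIG1 to INSIG2 crosses from about 1.98 with control siRNA to 0.850 under siRNA.1 and 0.680 under siRNA.2, while SREBF2 stays above SREBF1 in all libraries.

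SCAP encodes the sterol-sensing escort of the SREBPs. The gene (ENSG00000114650, minus strand of chromosome 3, 47413681 to 47477126) was at 6.94, 7.60 and 7.30 FPKM in control libraries, 7.43, 6.89 and 6.92 under siRNA.1 and 6.68, 7.10 and 7.49 under siRNA.2, with all groups overlapping. The log2 fold change was -0.07 under siRNA.1 (95% interval -0.21 to 0.08, adjusted p = 0.572 from edgeR) and -0.05 under siRNA.2 (95% interval -0.19 to 0.10, adjusted p = 0.702 from edgeR).

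STARD4 encodes a soluble protein that carries cholesterol between membranes of the cell. The gene (ENSG00000164211, minus strand of chromosome 5, 111496033 to 111512590) was at 4.58, 5.65 and 5.28 FPKM in control libraries, 1.95, 2.16 and 2.04 under siRNA.1 and 3.01, 2.89 and 3.16 under siRNA.2. The groups did not overlap, but unlike for SREBF1, SREBF2 and INSIG1 the siRNA.1 libraries were the lowest. The log2 fold change was -1.36 under siRNA.1 (SE 0.11, edgeR adjusted p = 3.95e-33) and -0.79 under siRNA.2 (SE 0.10, edgeR adjusted p = 7.45e-13), leaving 38.9% and 58.0% of the control level. A lower log2 fold change was found for 5.01% of all tested genes with siRNA.1 and for 10.2% with siRNA.2. An antisense gene, STARD4-AS1, overlaps it and had at most 14 counts per library, against at least 189 for STARD4.

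The promoters of INSIG1 and STARD4, which had the largest decreases among the SREBP targets of the group, are shown for comparison with that of SREBF2. In INSIG1 the capitals mark an E-box, CACGTG, at -55 to -50 from the start, which SREBPs can also bind and 7.23% of promoters hold, and a CCAAT box read as ATTGG, at -170 to -166. The E-box was in 3 of the 7 promoters, those of INSIG1, ABCA1 and SCAP. In SCAP, which was not called with either siRNA, it lay at -58 to -53. In STARD4 the capitals mark a pair of CCAAT boxes, at -161 to -157 and -130 to -126. Neither window held the letters of the SREBF2 element, which says only that they are not in it.
INSIG1 promoter, chr7:155297628-155297927, plus strand: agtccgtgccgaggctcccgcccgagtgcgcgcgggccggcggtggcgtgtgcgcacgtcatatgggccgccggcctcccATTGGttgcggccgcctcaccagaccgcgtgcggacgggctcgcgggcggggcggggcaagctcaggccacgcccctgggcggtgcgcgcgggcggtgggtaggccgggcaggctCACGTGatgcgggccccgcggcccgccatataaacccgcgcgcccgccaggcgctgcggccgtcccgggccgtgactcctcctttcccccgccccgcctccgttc
STARD4 promoter, chr5:111512486-111512785, minus strand: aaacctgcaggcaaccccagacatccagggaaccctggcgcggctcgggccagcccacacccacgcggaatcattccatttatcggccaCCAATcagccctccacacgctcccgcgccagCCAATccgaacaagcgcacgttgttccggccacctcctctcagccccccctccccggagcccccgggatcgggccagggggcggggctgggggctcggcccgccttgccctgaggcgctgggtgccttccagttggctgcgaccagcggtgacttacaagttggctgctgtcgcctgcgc

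ABCA1 encodes the transporter that passes cholesterol and phospholipid to lipid-poor apolipoprotein A-I. The gene (ENSG00000165029, minus strand of chromosome 9, 104781006 to 104928155) was at 2.90, 3.37 and 3.81 FPKM in control libraries, 2.16, 2.84 and 2.68 under siRNA.1 and 2.89, 2.38 and 2.49 under siRNA.2. The highest siRNA.2 library, at 2.89 FPKM, was next to the lowest control library, at 2.90. The log2 fold change was -0.43 under siRNA.1 (SE 0.09, edgeR adjusted p = 6.46e-06) and -0.39 under siRNA.2 (SE 0.08, edgeR adjusted p = 2.65e-05). The call was lost when FPKM were tested with limma in place of counts (adjusted p = 0.0760 and 0.0887 with a pseudocount of 0.1). With edgeR it held without any single library, with an adjusted p of at most 0.00542 and 0.0129.

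ABCG1 encodes a transporter that passes cholesterol to high-density lipoprotein. The gene (ENSG00000160179, plus strand of chromosome 21, 42199689 to 42297244) had 33, 52 and 55 counts in control libraries, 24, 20 and 26 under siRNA.1 and 32, 24 and 18 under siRNA.2, the fewest counts of the 8 genes. In FPKM these were 0.350, 0.540 and 0.500 in control libraries, 0.220, 0.210 and 0.240 under siRNA.1 and 0.260, 0.200 and 0.130 under siRNA.2, with the siRNA libraries below the control libraries. The log2 fold change was -1.07 under siRNA.1 (SE 0.33, edgeR adjusted p = 0.00631) and -1.25 under siRNA.2 (SE 0.33, edgeR adjusted p = 0.00100). At this depth its 95% intervals were wide, from -1.73 to -0.41 and from -1.90 to -0.59, and limma on log2(FPKM + 0.1) did not call it with siRNA.1 (adjusted p = 0.0796). The ABCA1 to ABCG1 ratio within libraries was between 6.24 and 8.29 in control libraries, between 9.82 and 13.5 under siRNA.1 and between 11.1 and 19.2 under siRNA.2 (two-sided exact permutation p = 0.10 for each siRNA against control). ABCA1 and ABCG1 are abundant in macrophages. The 8 macrophage markers CD68, CD163, CSF1R, MRC1, MARCO, AIF1, PTPRC and ITGAM went from a summed level between 1.47 and 2.38 FPKM with control siRNA to between 3.94 and 4.84 under siRNA.1 and between 3.58 and 3.83 under siRNA.2. CD163 and AIF1 were at 0 counts in all control libraries. Per library, CD163 had 13 to 18 counts under siRNA.1 and 15 to 24 under siRNA.2, and AIF1 had 2 to 5 and 2 to 6. The mean of MRC1 went from 0.09 FPKM to 1.26 under siRNA.1 and 1.13 under siRNA.2. Of the 8 markers, 6 were called higher under siRNA.1 and 5 under siRNA.2, where 15.0% and 15.8% of all tested genes were called higher. MARCO and ITGAM were called in neither comparison. The part of these markers in the levels of ABCA1 and ABCG1 was not tested. In bulk RNA, fewer cells with a transcript and less of it per cell cannot be told apart.

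The ABCA1 promoter is shown because it holds the LXR site, a direct repeat with 4 bases between its repeats. In capitals are that repeat, searched as AGGTNA and NGGTCA with 4 free bases between them and found on the opposite strand at -69 to -54 and present in 0.0916% of promoters, and an E-box at -147 to -142. None of the other 6 promoters held the repeat in the windows searched, and sites outside these windows, such as at other starts of a gene, were not searched.
ABCA1 promoter, chr9:104928106-104928405, minus strand: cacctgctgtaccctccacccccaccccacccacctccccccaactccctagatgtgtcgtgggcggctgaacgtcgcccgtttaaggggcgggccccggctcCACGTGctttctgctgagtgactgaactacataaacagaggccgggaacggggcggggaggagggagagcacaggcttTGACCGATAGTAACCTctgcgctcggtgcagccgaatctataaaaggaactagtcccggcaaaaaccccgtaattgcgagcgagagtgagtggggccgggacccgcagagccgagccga

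The SREBF genes also host a pair of microRNAs, miR-33a in SREBF2 and miR-33b in SREBF1, which are known to repress ABCA1. Each lies in intron 16 of the canonical 19-exon transcript of its host in GENCODE release 44. The mature 5p forms, from RefSeq (GRCh38.p14), share the seed at bases 2 to 8, in capitals.
hsa-miR-33a-5p, chr22:41900949-41900969, plus strand: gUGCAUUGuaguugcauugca
hsa-miR-33b-5p, chr17:17813897-17813916, minus strand: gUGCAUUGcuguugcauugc
The bases complementary to this seed, CAATGCA, occur 4 times in the 3309-base 3′ UTR of the canonical ABCA1 transcript, once in that of SCAP and in none of the other 6 genes, and 8.40% of 19550 canonical 3′ UTRs hold them. Of the ABCA1 matches, 3 share a window at bases 131 to 160 of the 3′ UTR, partly overlapping, and the other lies at bases 1475 to 1481, as shown with the matches in capitals.
ABCA1 window 1, chr9:104784155-104784184, minus strand: tattCAATGCAATGCAattCAATGCAatga
ABCA1 window 2, chr9:104782830-104782844, minus strand: gcaaCAATGCAaaag
Mature microRNAs are not captured by poly(A) selection and were not measured. The hairpin rows had 0 counts in every library for MIR33A and at most 7 for MIR33B.

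The siRNAs were also compared directly. Of the 8 genes, 3 were lower under siRNA.2 than under siRNA.1 (SREBF1, SREBF2 and INSIG1) and 1 was higher (STARD4), where 12.2% of all tested genes were called, 6.07% lower and 6.10% higher. In FPKM these 3 lay wholly below and this 1 wholly above the siRNA.1 libraries, as did 13.1% and 11.3% of all tested genes. STARD4 differed by 0.58 on the log2 scale (SE 0.11, edgeR adjusted p = 1.21e-05), INSIG1 by -0.32 (SE 0.09, edgeR adjusted p = 0.00553), SREBF1 by -0.22 (SE 0.06, edgeR adjusted p = 0.00211) and SREBF2 by -0.17 (SE 0.05, edgeR adjusted p = 0.0157). The INSIG1 difference did not pass without siRNA.1 replicate 1 (adjusted p = 0.0652 from edgeR) or without siRNA.2 replicate 2 (adjusted p = 0.0820), nor with limma on log2(FPKM + 0.1) (adjusted p = 0.113). The SREBF1 difference did not pass with limma on log2(FPKM + 1) (adjusted p = 0.0503), nor the SREBF2 difference with edgeR without siRNA.1 replicate 2 (adjusted p = 0.0542), siRNA.2 replicate 2 (adjusted p = 0.0547) or siRNA.2 replicate 3 (adjusted p = 0.160). The 95% interval of the difference was -0.13 to 0.20 for ABCA1, -0.13 to 0.16 for SCAP, -0.17 to 0.17 for INSIG2 and, at its low counts, -0.87 to 0.52 for ABCG1.

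**Figure D3:**
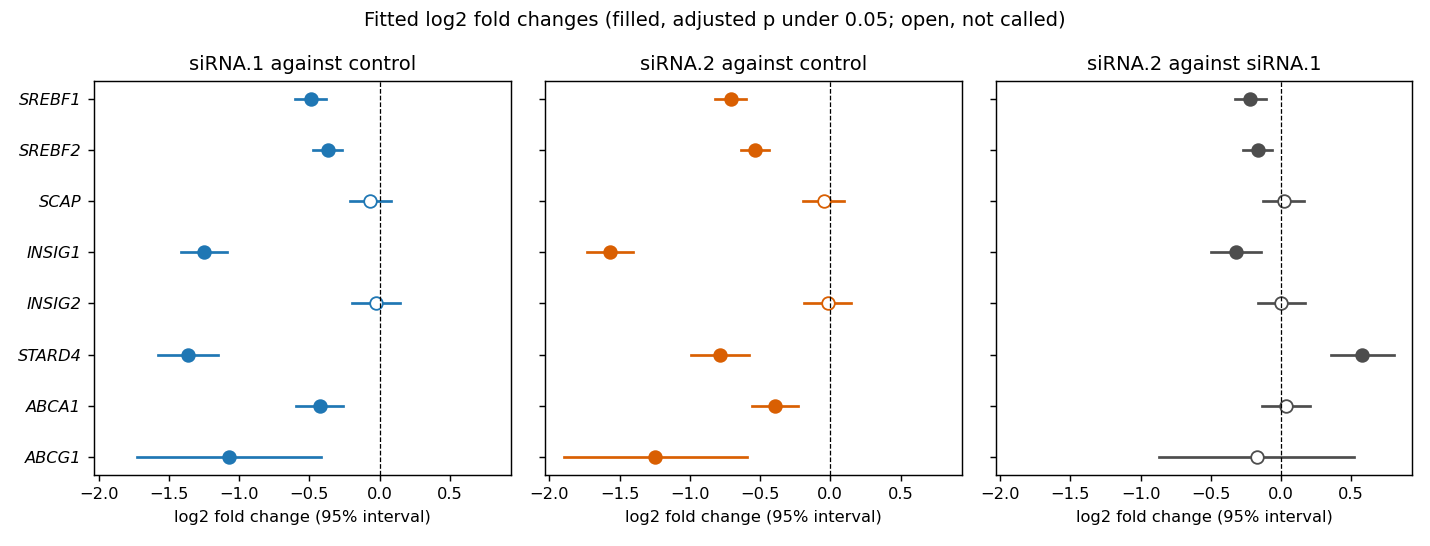
Log2 fold changes fitted by edgeR (points) with 95% intervals (lines) for each gene, with siRNA.1 against control, siRNA.2 against control and siRNA.2 against siRNA.1, and filled points have an adjusted p under 0.05. The intervals of SCAP and INSIG2 include 0 in all 3 panels, and STARD4 is the gene called higher with siRNA.2 than with siRNA.1.

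Across the 9 libraries, the log2 CPM of SREBF1, SREBF2 and INSIG1 had Pearson correlations of 0.98 (SREBF1 with SREBF2), 0.97 (SREBF1 with INSIG1) and 0.98 (SREBF2 with INSIG1). STARD4 correlated less with these, at 0.72, 0.71 and 0.79, and INSIG2 at most at 0.44 with any other gene. These libraries share their groups and the correlations are a description of 9 points. Among 11867 genes at a mean of 1 FPKM or more, the levels most like INSIG1 were those of BCAM (r = 0.992), SC5D, an enzyme of cholesterol synthesis (r = 0.992), and TMED10 (r = 0.990). Most like STARD4 were SWAP70 (r = 0.990), KDM1A (r = 0.986) and SLC2A6 (r = 0.986). Most like ABCA1 were MAML2 (r = 0.964), SDR39U1 (r = 0.962) and LPIN1, a phosphatidate phosphatase (r = 0.961).

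Other genes around the 8 were described with lists written down by function, and each gene named from them as lower or higher passed the threshold of edgeR in both comparisons with control. The lists too were drawn up with earlier results of these data known, so their counts describe the lists and do not test them. Of 14 genes that process, escort or degrade SREBPs and their partners, 6 were higher and 5 lower with siRNA.1, and 6 were higher and 4 lower with siRNA.2. Over all tested genes, 15.0% were called higher and 15.2% lower with siRNA.1, and 15.8% higher and 15.1% lower with siRNA.2. The site-1 protease MBTPS1, which makes the initial cut in SREBPs, had log2 fold changes of -0.20 under siRNA.1 and -0.23 under siRNA.2 (adjusted p = 0.00388 and 0.000381 from edgeR). SPRING1, which supports that protease, fell from 7.91 ± 0.342 FPKM (SD, n = 3) to 5.57 ± 0.297 under siRNA.1 and 5.71 ± 0.138 under siRNA.2. The ubiquitin ligases RNF145 (log2 fold changes -0.64 and -0.49) and RNF139 (-0.30 and -0.23) were lower, and the Golgi anchor PAQR3 (0.36 and 0.26) and FBXW7, which marks nuclear SREBPs for degradation (0.29 and 0.30), were higher.

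The list of lipoprotein uptake had medians of -0.54 under siRNA.1 and -0.79 under siRNA.2, the latter the lowest of the 6 pathway lists. Of its 7 tested genes of 9, 5 were lower and 1 higher in each comparison, where 15.2% and 15.1% of all tested genes were called lower. SORT1, a sorting receptor, had log2 fold changes of -1.04 and -1.14, and the receptor LRP1 -0.88 and -0.90. SCARB1, the receptor for high-density lipoprotein, rose from 5.18 ± 0.329 FPKM (SD, n = 3) to 7.69 ± 0.314 and 7.33 ± 0.226.

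Of 12 LXR receptors and target genes, 11 were tested. With siRNA.1, 2 were higher and 5 lower, with a median of -0.13, and with siRNA.2, 1 was higher and 3 lower, with a median of 0.04. Of all tested genes, 30.2% were called with siRNA.1 and 30.9% with siRNA.2. MYLIP, a ubiquitin ligase and LXR target, fell from 4.03 ± 0.221 FPKM (SD, n = 3) to 2.31 ± 0.355 and 1.82 ± 0.0833. SCD, the stearoyl-CoA desaturase, which is both an LXR and an SREBP target, fell from 134 ± 11.5 FPKM (SD, n = 3) to 63.1 ± 4.55 and 65.0 ± 4.11. It is counted in the LXR list and again in that of fatty acid synthesis, so these lists are not separate. RXRA, the partner receptor of the LXRs, had log2 fold changes of -0.48 and -0.42, and APOC1, an apolipoprotein gene, 0.48 and 0.67.

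Of 20 genes of cholesterol transport and storage inside the cell, 18 were tested, with 4 higher and 4 lower with siRNA.1 and 3 higher and 5 lower with siRNA.2, 8 called in each comparison where 30.2% and 30.9% of all tested genes were called, and the list had medians of -0.03 and -0.05. SCP2, the sterol carrier protein (log2 fold changes -0.32 and -0.34), STARD3NL (-0.37 and -0.26) and SOAT1, which esterifies cholesterol for storage (-0.29 and -0.14), were lower, and STARD5, a relative of STARD4, rose from 1.60 ± 0.355 FPKM (SD, n = 3) to 2.05 ± 0.215 and 2.23 ± 0.194.

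The enzymes downstream were mostly lower. Of 20 sterol synthesis genes, 18 were lower with siRNA.1 and 16 under siRNA.2 and none was higher, with medians of -0.59 and -0.57, among them MVK (log2 fold changes -1.33 and -1.21), MSMO1 (-0.98 and -1.09) and HSD17B7 (-0.82 and -1.02). Of 14 fatty acid synthesis genes, 9 and 10 were lower and none was higher, with medians of -0.41 and -0.40, among them PNPLA3 (-1.03 and -0.96), FASN (-0.84 and -0.70) and FADS1 (-0.60 and -0.47). Beside these counts, 15.2% of all tested genes were called lower with siRNA.1 and 15.1% with siRNA.2.

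**Figure D4:**
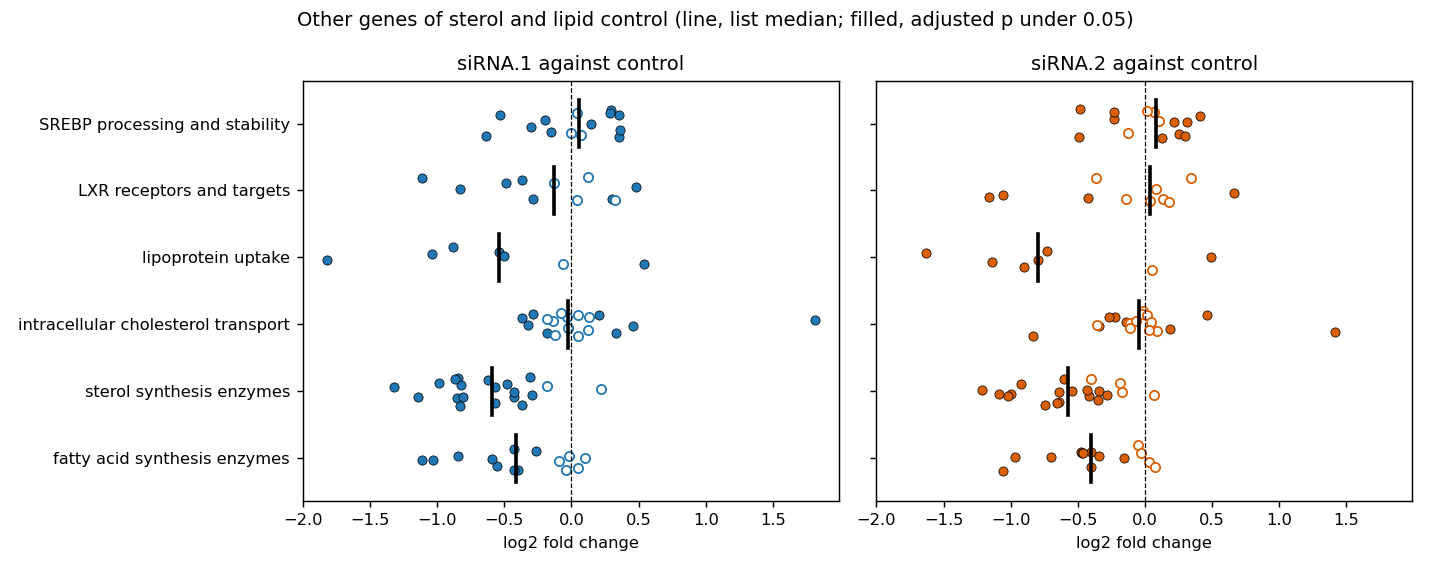
Log2 fold changes of the genes of 6 lists (points, spread vertically for legibility) with the list median (line), with siRNA.1 against control and siRNA.2 against control, and filled points have an adjusted p under 0.05. The medians of lipoprotein uptake, sterol synthesis and fatty acid synthesis lie between -0.79 and -0.40, and those of the other 3 lists between -0.13 and 0.09.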

How the data were processed

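Poly(A)+ RNA of TE13 cells was sequenced on an Illumina NovaSeq. The authors checked reads with FastQC, ran STAR against GRCh38 and featureCounts on genes, and versions, annotation release and strandedness are not given in the sources used here. The authors deposited raw counts per gene and FPKM, which are those counts scaled to exonic length and to the total on genes (100.0% of values were recomputed to within 0.0051). Counts were tested here in R 4.3.3 with edgeR 4.0.16 (TMM factors between 0.989 and 1.02), in a fit of 3 groups without covariates, over 21397 genes that averaged 0.1 FPKM or more. Standard errors were derived from the log2 fold change and its F statistic. DESeq2 1.42.0, which the authors used, and limma 3.58.1 on log2(FPKM + 0.1) were alternatives, beside other pseudocounts, filters and size factors and leaving out each library. The tests were tried on simulated counts with the same dispersion for all genes, whose outcome is not given and is not used as support here. FPKM are scaled by library totals and log2 fold changes by TMM. Ratios were compared by exact permutation tests in scipy 1.17.1. Same-numbered libraries did not deviate together (correlations between -0.167 and 0.0788), so the replicate number was not used for pairing. Libraries of a group differed by more than sampling noise (chi-square per degree of freedom at least 2.76), and each counted as 1 sample.

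The 8 genes and all lists were chosen with earlier results of these data known. Named list genes are, per list and direction, up to 4 with the largest mean log2 fold change that passed 0.05 in each comparison with control and averaged 1 FPKM or more, and some of them are not reported here. Likeness used log2 CPM with a prior count of 2. Promoters and microRNAs were taken from RefSeq tables of GRCh38.p14, and 3′ UTRs from GENCODE release 44, which gives the deposited start and end for 7 of the 8 genes and differs at SREBF2.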

Additional observations from a re-analysis of the deposited data

Results flagged for a closer look

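The effects of the siRNAs differed, by the direct test between them with edgeR, for 4 of the 8 genes. Of all tested genes, 12.2% were called in that test. The calls of INSIG1, SREBF1 and SREBF2 were lost under some alternative settings or without some libraries, and that of STARD4 was kept throughout. The log2 difference, siRNA.2 minus siRNA.1, was 0.58 for STARD4 (adjusted p = 1.21e-05), -0.32 for INSIG1 (adjusted p = 0.00553), -0.22 for SREBF1 (adjusted p = 0.00211) and -0.17 for SREBF2 (adjusted p = 0.0157), so STARD4 went the opposite way from the other SREBP targets of the group. Some of the other genes named from the lists also passed the same test. FASN differed by 0.14 (adjusted p = 0.00851) and CAV1 by -0.81 (adjusted p = 1.70e-89). Of the epithelial markers, KRT5 differed by 0.50 (adjusted p = 1.66e-27), KRT14 by -0.28 (adjusted p = 0.0462), KRT18 by -0.23 (adjusted p = 8.79e-11) and CDH1 by -0.38 (adjusted p = 2.44e-22).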

How the results depend on the processing

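Each of the 8 genes was refitted under 10 other settings and without each of the 9 libraries, 152 refits per comparison. The side of the threshold was kept in 146 refits with siRNA.1, 149 under siRNA.2 and 143 between the siRNAs, the other 18 lost the threshold, and no called direction reversed, though genes that were not called changed sign in some refits. All losses against control came from limma on FPKM, for ABCA1 with each siRNA and ABCG1 under siRNA.1. The number of the 8 genes called was 6 under siRNA.1 and 6 under siRNA.2, and ranged over all settings from 4 to 6 and from 5 to 6. Between the siRNAs, 4 were called, but 2 with limma on log2(FPKM + 1), and without a single library between 2 and 4, the lowest without siRNA.2 replicate 2. Over all genes, 2604 differed between the siRNAs, but 1437, 1414 and 1449 with limma at pseudocounts of 0.1, 1 and 0.01, and between 1905 and 2695 without a single library, and the cause was not tested. With library totals in place of TMM, 2845 of 6389 calls with siRNA.1 were lower, against 3252 of 6471. With the replicate number as a block the count of the 8 genes called was 6, 6 and 4, as without it, and over all genes 6214, 6356 and 2340. Depth limits ABCG1, with 18 to 55 counts, and LINC00885.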

Other observations

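Some genes of the same lists, chosen after their values were seen, stood out from their neighbours. CAV1, which encodes the cholesterol-binding coat protein of caveolae, stood at 152 ± 3.19 FPKM (SD, n = 3) in control cells and 152 ± 3.50 under siRNA.1, but at 86.1 ± 2.43 under siRNA.2, a log2 fold change of -0.83 (adjusted p = 5.63e-97 from edgeR). GRAMD1B, which moves cholesterol from the plasma membrane to the endoplasmic reticulum, was low, with 10 to 29 counts in the control libraries, 50 to 71 under siRNA.1 and 49 to 72 under siRNA.2, and had log2 fold changes of 1.81 and 1.42 (adjusted p = 5.32e-08 and 3.90e-05 from edgeR). Within the synthesis lists, CYP51A1, PMVK, ACLY, FADS2, ELOVL5 and MID1IP1 did not pass the threshold with either siRNA, with log2 fold changes between -0.18 and 0.22. The other 18 sterol synthesis genes were lower with siRNA.1.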
